A study of Mus musculus with 17 samples.

Results

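Transcripts of the cytosolic ribosomal proteins were followed across 3 populations of sorted mouse myeloid cells. The genes were chosen by symbol: those beginning with Rpl, Rps or Rplp and a number, without the S6 kinases (Rps6k) and without pseudogenes marked -ps. The rule found 79 of the 10207 named genes, 48 of the large subunit and 31 of the small subunit by symbol. It used no measured value. The name rule also took in genes that are not ordinary subunits: the paralogs Rpl3l, Rpl22l1, Rpl36al and Rps27l, and the related protein Rpl7l1. The retrogene Rpl37rt and Rps4l, also taken in, are annotated in GENCODE M21 as transcribed processed pseudogenes. Rps19bp1, likewise taken in, binds Rps19 and is not itself a subunit. Rpl26, Rpl30, Rpl34, Rps15a and Rps27 were not analysed here.

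All mice were BALB/c females, and each group was a bulk sample sorted by surface markers. BMDM_T (4 libraries) were CD11b+ Gr+ F4/80low marrow cells of mice with an orthotopic mammary tumor of 4T1-luc cells, a mouse mammary carcinoma line, with a label age of 8 weeks. BMDM_H (4 libraries, replicates 1 to 4) came from the same gate in healthy mice with a label age of 12 weeks, so tumor and label age cannot be told apart in that comparison. The design text speaks of age-matched mice where it introduces the healthy animals, while the labelled ages differ. TAM (3 libraries) were CD11b+ Gr- F4/80+ cells of the tumors, label age 8 weeks. Tumors were digested with collagenase, while marrow was flushed from bone and treated to lyse red cells, so tissue, gate and preparation cannot be told apart between TAM and marrow. Labels call the marrow cells monocytes. Their summed neutrophil markers, 12 genes, reached 138692 to 212745 CPM (counts per 1000000, with library totals adjusted by TMM factors), against 1302 to 3527 CPM for 6 monocyte markers. Total counts ran from 387940 to 1286844 in the marrow libraries and from 1748338 to 3747929 in TAM, where replicate 3 was the deepest.

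A ribosome carries 1 copy of most of its proteins in each subunit, so cells have to make these proteins in matching amounts. The stalk proteins Rplp1 and Rplp2 bind Rplp0 as dimers and recruit translation factors. Many ribosomal protein messenger RNAs begin with a C followed by a run of pyrimidines, the 5' TOP tract, through which mTOR signaling adjusts their translation. Myc raises transcription of ribosome genes in growing cells. Bulk RNA counts report transcript shares and not translation, and here fewer cells of a type and less RNA per cell cannot be told apart.

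The regions at starts listed in RefSeq were searched for the tract. A listed start need not be the one used in these cells, so a gene without a tract there may still have one. For Rps3, the window below ends at 99483724, while the GENCODE M21 gene begins at 99483738 on the minus strand. From RefSeq starts on GRCm38.p6, 59 of the 79 genes matched. A tract was counted on the gene's strand as a C followed by at least 4 bases of C or T, with no search of the other strand. It stood exactly at the listed start in 11 of 59 genes (18.6%), against 3.01% of 5851 tested genes with a listed start and 3.01% of all 27025 genes with one. Within 5 bases of the start the count was 26 of 59 (44.1%), against 24.5% of the tested genes. Of 60 mitochondrial ribosomal protein genes, 0 had it at the start and 16 (26.7%) within 5 bases. The windows below each hold 15 bases before the start and 15 from it, with the tract in capitals as far as it falls in the window. The first 6 are genes with a tract (Rpl12, Rpl14, Rpl13a and Rpl27a were higher in TAM, Rps9 lower, and Rps6 passed in neither direction). The others, among the largest changes, had no tract within 5 bases of the listed start.
Rpl27a (chr7:109519180-109519209, plus strand): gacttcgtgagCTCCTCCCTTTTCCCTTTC
Rpl13a (chr7:45128731-45128760, minus strand): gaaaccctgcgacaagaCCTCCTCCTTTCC
Rpl14 (chr9:120571502-120571531, plus strand): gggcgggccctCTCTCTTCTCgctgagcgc
Rpl12 (chr2:32961697-32961726, plus strand): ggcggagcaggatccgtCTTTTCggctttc
Rps6 (chr4:86857353-86857382, minus strand): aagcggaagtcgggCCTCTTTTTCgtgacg
Rps9 (chr7:3704026-3704055, plus strand): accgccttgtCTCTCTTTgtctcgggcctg
Rps7 (chr12:28635939-28635968, minus strand): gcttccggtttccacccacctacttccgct
Rps3 (chr7:99483695-99483724, minus strand): cttgcaagggtcgccgcgctgcgcggcgtc
Rps19bp1 (chr15:80264292-80264321, minus strand): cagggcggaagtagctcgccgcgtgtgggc
Rpl3l (chr17:24727811-24727840, plus strand): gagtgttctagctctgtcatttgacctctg

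Ribosomal protein transcripts took a larger share of the counts in TAM than in either marrow group. The 79 genes together held 10.5%, 10.8% and 11.9% of the counts in the TAM libraries. They held 6.03%, 7.98%, 7.44% and 7.43% in BMDM_T and 6.64%, 7.27%, 7.44% and 7.63% in BMDM_H. All TAM libraries lay above all marrow libraries, and the 2 marrow groups overlapped. The summed level was 106010 ± 7703 CPM in TAM (SD, n = 3), 76623 ± 6720 in BMDM_T (SD, n = 4) and 71968 ± 5883 in BMDM_H (SD, n = 4). The ratio of means was 1.38 for TAM against BMDM_T, 1.47 for TAM against BMDM_H and 1.06 for BMDM_T against BMDM_H. Large subunit genes had a ratio of 1.45 and small subunit genes of 1.31 for TAM against BMDM_T; this difference was not tested. The number of summed large subunit transcripts per small subunit transcript was 1.19, 1.28 and 1.26 in TAM and 1.01 to 1.19 over the 8 marrow libraries. These ranges overlapped, with BMDM_H replicate 2 at 1.19302 and TAM replicate 1 at 1.19284.

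**Figure D1:**
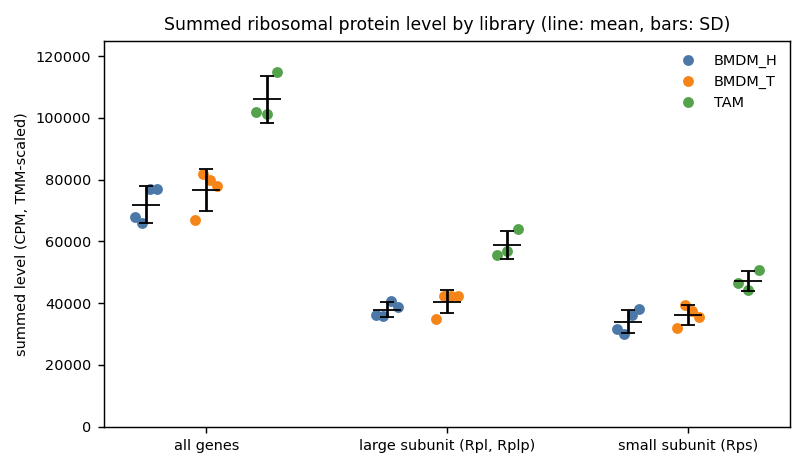
Summed level of the ribosomal protein genes in each library (y axis, CPM scaled with TMM factors), for all genes and by subunit. Points are libraries, lines group means and bars SD; the 3 TAM libraries lie between 101122 and 114890 CPM, above all 8 marrow libraries.

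For single genes, the table of all genes was fitted with edgeR's quasi-likelihood test, and a gene was called at a Benjamini-Hochberg adjusted p under 0.05 over 7518 tested genes. Of the 79 ribosomal protein genes, 76 had enough counts to be tested. The other 3 were low in all groups. Rpl21 had 0 to 3 counts per marrow library and 9, 1 and 7 in TAM, Rpl29 had 1 to 7 and 6, 4 and 24, and Rpl22l1 had 2 to 7 and 21, 10 and 42. Among the tested genes, group means ran from 1.34 CPM (Rpl3l) to 8373 CPM (Rplp1) in TAM, and 40 of 76 reached 1000 CPM there against 29 in BMDM_T and 28 in BMDM_H. The libraries count transcript 3' ends and have no form per length, so genes are not compared with each other by level.

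In tumor macrophages compared with marrow cells of the same tumor-bearing condition, most called ribosomal protein genes were higher. Of 76 genes, 42 rose and 4 fell, with 30 not called; among all tested genes 58.9% were called, 30.1% as higher and 28.7% as lower. The median log2 fold change was 0.56 over the 76 genes and 0.03 over all tested genes. All TAM libraries lay above all BMDM_T libraries for 39 genes and below for 3, against 30.4% and 27.7% of all tested genes. In the large subunit 27 of 45 rose and 2 fell (median 0.65), and in the small subunit 15 of 31 rose and 2 fell (median 0.46).

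The count of risen genes depended on 1 library. TAM replicate 3 was the highest of the TAM libraries for 42 of 76 genes, and 11 of them exceeded the mean of the other two by more than 1.5-fold, led by Rps7 (2.25-fold), Rps23 (2.12-fold) and Rps3 (1.94-fold). Without it 22 genes rose (28.9%), close to the 26.2% of all genes tested in that fit, and 2 fell (all genes 26.6%). The fitted change was positive in 66 of 76 genes in that fit and in 65 of 76 with all libraries, with medians of 0.42 and 0.56. The calls of 17 genes held in each of the 22 alternatives: Rpl3, Rpl4, Rpl6, Rpl10a, Rpl11, Rpl12, Rpl13, Rpl13a, Rpl14, Rpl19, Rpl22, Rpl23, Rpl27a, Rplp1, Rps3, Rps7 and Rps19bp1.

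**Figure D2:**
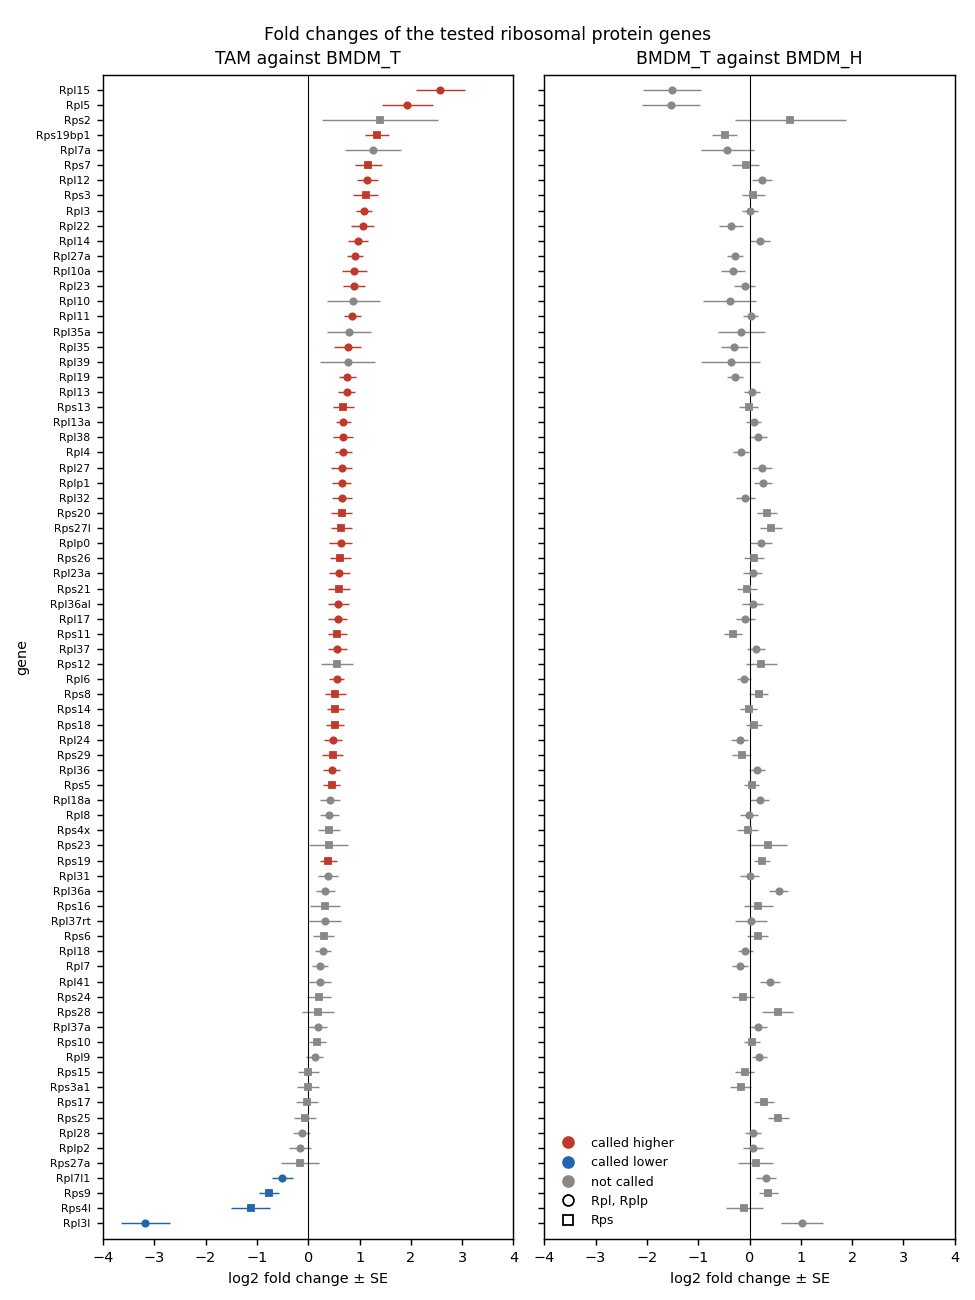
Log2 fold change with its SE for each tested ribosomal protein gene (x axis), in TAM against BMDM_T (left) and BMDM_T against BMDM_H (right), in the same gene order. On the left 42 points are called higher and 4 lower; on the right none is called.

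Rpl3, a protein of the large subunit near the peptidyl transferase center, had the tightest marrow groups among the 5 largest called rises. For Rpl3 the coefficient of variation was 4.24% in BMDM_T and 8.96% in BMDM_H (14.2% in TAM, where Rps19bp1 was tighter at 6.06%). Its levels were 1594, 1546 and 1990 CPM in TAM, 760, 814, 791 and 840 in BMDM_T, and 762, 891, 809 and 726 in BMDM_H. Every TAM library was far above every marrow library, and the marrow groups overlapped. The log2 fold change was 1.09 ± 0.16 (SE; edgeR adjusted p = 6.0e-06) against BMDM_T and 1.10 ± 0.16 (adjusted p = 6.7e-06) against BMDM_H. The gene lies on the minus strand at chr15:80077791-80091868 (GRCm38) and holds small nucleolar RNA genes such as Snord43 and Snord83b within its bounds.

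Rpl12 sits at the base of the stalk, where translation factors bind. It stood at 1447, 1247 and 2160 CPM in TAM, 746, 939, 648 and 582 in BMDM_T, and 485, 693, 710 and 583 in BMDM_H. TAM did not overlap with marrow, and replicate 3 was the highest TAM library. The log2 fold change was 1.15 ± 0.21 (edgeR adjusted p = 9.5e-05) against BMDM_T and 1.39 ± 0.21 (adjusted p = 1.3e-05) against BMDM_H, and without TAM replicate 3 it was 0.87 and 1.12. Rpl12 lies at chr2:32961559-32965345 on the plus strand, with Snora65 inside it and Lrsam1 overlapping on the other strand.

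Rps3, which lines the messenger RNA entry channel, and Rps7, a small subunit protein also known to bind Mdm2, rose with a wide spread in TAM. Rps7 had 822, 920 and 1964 CPM in TAM, 625, 656, 507 and 407 in BMDM_T, and 398, 694, 748 and 474 in BMDM_H. For Rps3 the levels were 633, 603 and 1199 CPM in TAM, 454, 409, 267 and 364 in BMDM_T, and 277, 469, 376 and 291 in BMDM_H. In both genes the third TAM library was about double the others, though no TAM library reached down into the marrow range. Rps7 had a log2 fold change of 1.17 ± 0.27 (edgeR adjusted p = 0.00098) against BMDM_T, which was 0.66 without that library. The value for Rps3 was 1.12 ± 0.24 (adjusted p = 0.00051), and 0.72 without it.

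Rps19bp1, not a subunit, had the largest rise against BMDM_T among called genes with at least 30 CPM. It was at 53.9, 48.3 and 53.5 CPM in TAM, 17.2, 17.6, 20.8 and 26.2 in BMDM_T, and 31.0, 33.0, 16.7 and 31.2 in BMDM_H. TAM was above all marrow libraries, and the log2 fold change was 1.34 ± 0.23 (edgeR adjusted p = 4.1e-05) against BMDM_T and 0.85 ± 0.23 (adjusted p = 0.0033) against BMDM_H. Rpl15 and Rpl5, named after their values were seen, had larger fitted changes on few counts. Rpl15 stood at 13.3, 9.02 and 17.3 CPM in TAM and 1.08 to 2.71 in BMDM_T (log2 2.58 ± 0.47). Rpl5, part of the 5S RNA particle, stood at 7.22, 9.02 and 11.6 CPM in TAM and 1.08 to 4.51 in BMDM_T (log2 1.93 ± 0.50).

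The stalk genes did not give 1 pattern. Rplp1 had 7822, 8472 and 8824 CPM in TAM, 3877, 6331, 5843 and 5245 in BMDM_T, and 3780, 4081, 5151 and 4749 in BMDM_H, with no TAM library in the marrow range. It rose by 0.65 ± 0.19 on the log2 scale (edgeR adjusted p = 0.0054) against BMDM_T and by 0.92 ± 0.19 (adjusted p = 0.00034) against BMDM_H. Rplp0 had 2680, 2387 and 3374 CPM in TAM, 2058, 1414, 1490 and 2312 in BMDM_T, and 1146, 1523, 1385 and 2181 in BMDM_H. It also passed, at 0.63 ± 0.22 (adjusted p = 0.02) and 0.86 ± 0.22 (adjusted p = 0.0028). Against BMDM_T the Rplp0 call was lost without TAM replicate 3 (log2 0.47), BMDM_T replicate 2 (0.52) or BMDM_T replicate 3 (0.53). Rplp2 had 2898, 3295 and 2074 CPM in TAM, within the 2135 to 3722 of the marrow libraries apart from the third, which was below them. Its log2 fold change was -0.16 ± 0.21 (adjusted p = 0.55) and -0.09 ± 0.21 (adjusted p = 0.76), and whether it differs from those of Rplp0 and Rplp1 was not tested.

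The genes that fell against BMDM_T were Rps9, Rpl7l1, Rpl3l and Rps4l. Rps4l, annotated as a processed pseudogene, was named after its values were seen. Rps9 is a core protein of the small subunit body. Its levels were 1739, 1671 and 1313 CPM in TAM, 2319, 2227, 3196 and 2960 in BMDM_T, and 2485, 1558, 2315 and 1931 in BMDM_H. TAM lay below all BMDM_T libraries and overlapped with BMDM_H. The log2 fold change was -0.77 ± 0.20 (edgeR adjusted p = 0.0026) against BMDM_T and -0.40 ± 0.20 (adjusted p = 0.095) against BMDM_H, and the former call held in all 22 alternatives, while without BMDM_H replicate 2 Rps9 was also called lower against BMDM_H. Rpl7l1 had 56.7, 50.9 and 35.4 CPM in TAM and 62.2 to 70.0 in BMDM_T (log2 -0.50 ± 0.20, adjusted p = 0.036), a call lost in 6 of 22 alternatives, among them those without TAM replicate 3 (-0.32), BMDM_T replicate 1 (-0.50) or BMDM_T replicate 2 (-0.49). Rps4l had 10.6, 6.36 and 5.69 CPM in TAM and 9.25 to 24.2 in BMDM_T (log2 -1.12 ± 0.38, edgeR adjusted p = 0.016). That call was lost without TAM replicate 3 or BMDM_T replicate 3. With every library thinned to the lowest total, Rps4l was not among the called genes either.

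Among the paralogs, Rpl3l and Rpl3 moved in opposite directions. Rpl3l, known from striated muscle, had 3, 2 and 5 counts in TAM, 15, 17, 10 and 10 in BMDM_T, and 6, 8, 6 and 1 in BMDM_H. In CPM these were 1.67, 1.06 and 1.29, then 16.2, 14.3, 11.5 and 9.02, then 4.77, 6.43, 11.2 and 2.60. Every TAM library was lowest, and the log2 fold change was -3.18 ± 0.47 (edgeR adjusted p = 5.9e-06) against BMDM_T. With every library thinned to the lowest total, Rpl3l was not among the called genes. Per 100 Rpl3 counts there were 0.105, 0.0686 and 0.065 of Rpl3l in TAM and 1.07 to 2.13 in BMDM_T. Rpl22 rose against BMDM_T, from 16.2, 38.7, 28.9 and 26.2 CPM to 62.2, 54.1 and 57.9 (log2 1.06 ± 0.22, adjusted p = 0.00035). Rpl36al passed against both marrow groups (log2 0.59 ± 0.21, adjusted p = 0.02, and 0.65 ± 0.21, adjusted p = 0.014) but in neither case without TAM replicate 3 (0.31 and 0.39). That call was also lost without BMDM_T replicate 1 (0.50) or 3 (0.53) in the first comparison, and without BMDM_H replicate 1 (0.48) or 2 (0.56) in the second. Its partner Rpl36a passed against BMDM_H alone (0.90 ± 0.19, adjusted p = 0.00057; against BMDM_T 0.33 ± 0.19, adjusted p = 0.14). Rpl7 was called in neither comparison (0.23 ± 0.16, adjusted p = 0.22, and 0.04 ± 0.16, adjusted p = 0.83).

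Against marrow cells of healthy mice, which share the TAM libraries with the comparison above, 41 genes rose and 2 fell. Among all tested genes 56.3% were called, 28% as higher and 28.3% as lower. The median log2 fold change was 0.58 over the ribosomal protein genes and 0.02 over all genes. The 5 largest rises among called genes with at least 30 CPM were Rpl12, Rps3, Rpl14, Rpl3 and Rps7. Rps3 had 1.20 ± 0.24 (edgeR adjusted p = 0.00033). Rps7 had 1.10 ± 0.27 (adjusted p = 0.002), and 0.59 without TAM replicate 3. Rpl14, a large subunit protein, had 1968, 2310 and 2656 CPM in TAM, 906, 1041, 1398 and 1400 in BMDM_T, and 852, 873, 1159 and 1247 in BMDM_H. TAM did not overlap with marrow, and the log2 fold change against BMDM_H was 1.17 ± 0.20 (adjusted p = 4.8e-05). The falls were Rpl3l (-2.15 ± 0.55, adjusted p = 0.0019) and Rps4l (-1.22 ± 0.39, adjusted p = 0.012). Without TAM replicate 3, 28 genes rose (36.8%, against 24.5% of all genes in that fit) and Rpl3l alone fell. Without BMDM_H replicate 1 Rpl3l was again the only fall.

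Other features of the TAM libraries moved with these results. All 12 neutrophil markers were lower in TAM, with a summed level of 341 to 574 CPM. All 7 macrophage markers were higher (57999 to 71881 CPM against 1899 to 3524 in marrow). The 6 monocyte markers were mixed: 4 higher and 2 lower against BMDM_T, and 2 higher and 3 lower against BMDM_H. Their summed level was 1709 to 1905 CPM in TAM, inside the 1302 to 3527 CPM of marrow. All 8 markers of dividing cells were lower in TAM, at 392 to 432 CPM against 921 to 1325 in marrow. Both tested progenitor markers were lower as well, and Myb was at 0 counts in TAM. B lineage markers (5 of 5 tested; 7.22 to 14.9 CPM in TAM against 162 to 649 in marrow) and T and NK markers (2 of 2; 0.556 to 1.06 against 187 to 303) were lower, with Cd79a, Vpreb3, Ms4a1 and Igll1 at 0 counts in TAM. Of 3 tested epithelial tumor cell markers 1 was higher against BMDM_T and 2 against BMDM_H, and the summed level of that list was 79.5 to 117 CPM in TAM, 21.5 to 47.3 in BMDM_T and 32.6 to 80.7 in BMDM_H. The part of cell type in the ribosomal protein result was not tested. TAM libraries were also deeper. With every library thinned to the lowest total, 40 of 72 tested ribosomal protein genes (55.6%) rose against each marrow group. In these fits 1 fell against BMDM_T and 0 against BMDM_H. Of all genes tested there, 25.6% rose and 27.5% fell against BMDM_T, and 25% and 27.2% against BMDM_H.

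Between the marrow groups no ribosomal protein gene was called. With edgeR 0 of 76 rose and 0 fell, against 2.82% and 2% of all tested genes (4.82% in all). At an unadjusted p under 0.05 there were 5, of which 3 were positive and 2 negative, against 17.6% of all genes. DESeq2 called 1 gene (Rpl36a), limma-voom 0, and the fit with the replicate block 1 (Rps25), each higher in BMDM_T. The median log2 fold change was 0.04, against -0.01 over all genes, with 44 positive and 32 negative. The quartiles of the change were -0.11 and 0.20.

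The smallest adjusted p in that comparison belonged to Rpl36a, part of the large subunit near the tRNA exit site. Its levels were 380, 414, 230 and 405 CPM in BMDM_T and 261, 255, 262 and 180 in BMDM_H. In BMDM_T 3 libraries were above BMDM_H and replicate 3 lay among them. The log2 fold change was 0.57 ± 0.18 (edgeR adjusted p = 0.087), and without BMDM_T replicate 3 it passed at 0.73. Rps25, chosen after its values were seen, had 385, 277, 181 and 291 CPM in BMDM_T and 225, 228, 132 and 172 in BMDM_H. These groups overlapped (0.56 ± 0.21, adjusted p = 0.14), and the gene was also called without BMDM_T replicate 3. Rpl15 was the gene whose groups did not overlap, at 1.08, 2.52, 2.31 and 2.71 CPM in BMDM_T and 3.18, 9.65, 7.44 and 5.21 in BMDM_H (log2 -1.51 ± 0.57, adjusted p = 0.14); 5.2% of all tested genes were lower without overlap and 5.99% higher.

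Marker lists did differ between the marrow groups. All 8 markers of red cell precursors were lower in BMDM_T (6.31 to 21.9 CPM against 62.9 to 325 CPM in BMDM_H), and Kel and Cldn13 were at 0 counts there. Of the neutrophil markers 4 of 12 were higher in BMDM_T, of the B lineage markers 3 of 5 were higher, and 4 of 6 monocyte and 4 of 7 macrophage markers were lower. Their part in the ribosomal protein values was not tested.

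**Figure D3:**
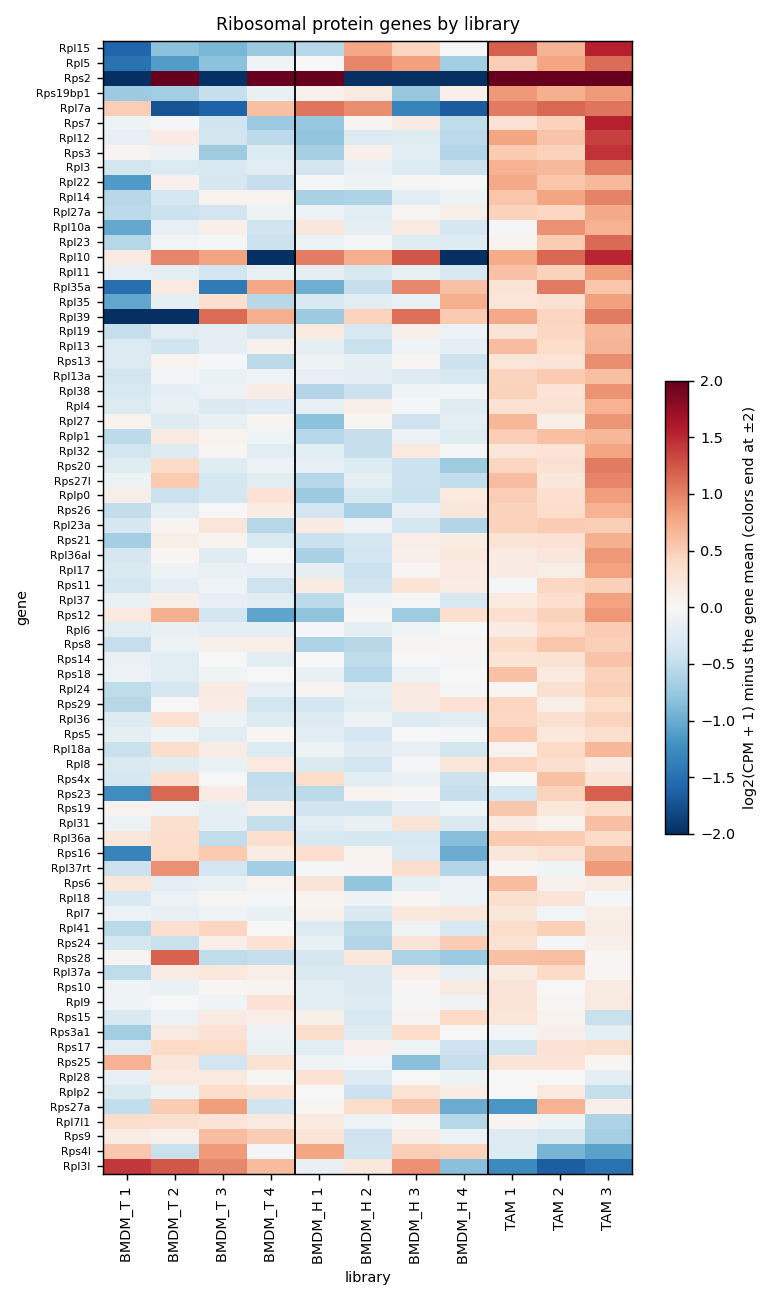
Level of each tested ribosomal protein gene (rows) in each library (columns), as log2(CPM + 1) minus the mean of the gene over the 11 libraries; colors end at 2 either way. TAM replicate 3 holds the highest TAM value for 42 of 76 genes, BMDM_T replicate 1 the lowest BMDM_T value for 39, and Rps2, Rpl7a, Rpl10 and Rpl39 switch between libraries of a group.

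Several genes varied more between libraries of a marrow group than between groups. Rps2, a small subunit protein next to the messenger RNA channel, had 5.38, 663, 9.24 and 909 CPM in BMDM_T and 834, 7.24, 7.44 and 7.81 in BMDM_H. In TAM it had 1245, 1148 and 786 CPM. Thus 3 of 8 marrow libraries were near the TAM level and 5 were below 10 CPM, with both kinds in each marrow group. Its log2 fold change was 1.40 ± 1.13 (edgeR adjusted p = 0.29) for TAM against BMDM_T, where limma-voom called it higher. Against BMDM_H it was 2.20 ± 1.15 (adjusted p = 0.11), called higher in 5 of 22 alternatives, namely limma-voom, thinning, the replicate block, the fit of those groups alone and the fit without BMDM_H replicate 1. Without BMDM_H replicate 1, the only healthy library at the high level, Rps2 was called higher in BMDM_T than in BMDM_H.

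Rpl7a was also split within both marrow groups. It had 976, 208, 226 and 1050 CPM in BMDM_T, 1454, 1319, 273 and 219 in BMDM_H, and 1418, 1539 and 1464 in TAM. Rpl10, one of the last proteins to join the large subunit, had 57.1, 101, 90.0 and 7.22 CPM in BMDM_T, 104, 84.4 and 123 in BMDM_H replicates 1 to 3, and 86.1, 114 and 148 in TAM. In BMDM_H replicate 4 it had 0 counts, which allows up to 7.81 CPM (3 counts; counting error only). Rpl39, at the exit tunnel, had 6.46, 2.52, 71.6 and 54.1 CPM in BMDM_T, 19.1, 44.2, 70.7 and 46.8 in BMDM_H, and 55.6, 44.0 and 67.2 in TAM. The low libraries overlapped in part. BMDM_T replicate 3 and BMDM_H replicates 3 and 4 were low for both Rps2 and Rpl7a, and BMDM_H replicate 4 was low for Rpl10 as well. BMDM_H replicates 4 and 3 and BMDM_T replicate 3 were also the shallowest libraries, with 387940, 556565 and 931278 counts, and the part of depth in the split was not tested. On the other hand BMDM_T replicate 1 was low for Rps2 and Rpl39 but high for Rpl7a, and BMDM_H replicate 2 was low for Rps2 alone. BMDM_T replicate 2, with 1218977 counts, was low for Rpl7a and Rpl39 but high for Rps2. BMDM_T replicate 4, with 1162967 counts, was low for Rpl10 alone. Rpl7a, Rpl10 and Rpl39 were not called in any comparison of the main test. Against BMDM_T, Rpl7a (1.26 ± 0.55, edgeR adjusted p = 0.055) was called higher in TAM in 12 of 22 alternatives, among them thinning, limma-voom and the replicate block. Rpl39 was called in 3 of them (limma-voom, the replicate block and without BMDM_T replicate 3) and Rpl10 in 0.

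**Figure D4:**
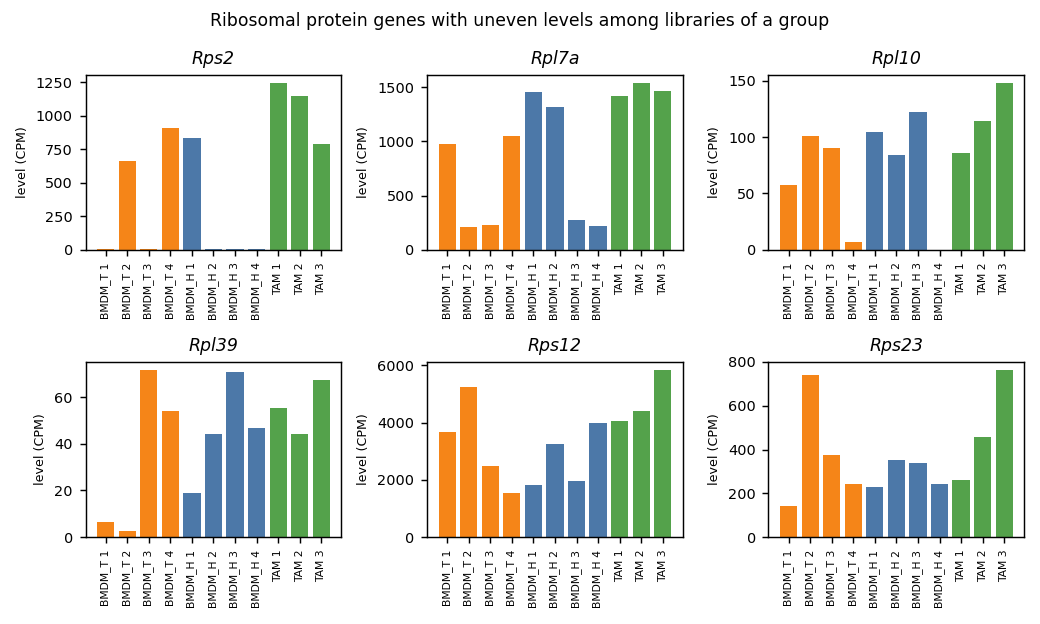
Level (CPM, y axis) of 6 ribosomal protein genes in each library (bars; orange BMDM_T, blue BMDM_H, green TAM). Rps2 is below 10 CPM in 5 of 8 marrow libraries and at 663 to 909 CPM in the other 3.

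Such a split was rare among all genes. Of 2495 genes reaching 100 CPM, 10 (0.401%) had more than a 4-fold range within both marrow groups, and Rps2, Rpl7a and Rpl10 were 3 of them, out of 67 ribosomal protein genes at that level. The median range was 1.39-fold for ribosomal protein genes and 1.34-fold for all genes. Ribosomal protein genes have many processed copies in the genome, which share sequence with the parent transcript. In GENCODE M21 (GRCm38, the build of the counts), the last 500 bases of each transcript were cut into windows of 50 bases. A median of 51.2% of windows also occurred in a transcript of another gene for 77 ribosomal protein genes with a match. More than 50% were shared in 40 of them (51.9%), against 3% of 7142 tested genes. Values were 87.8% for Rps2, 89.1% for Rpl7a and 100% for Rpl10. Outside that count, as they stayed below 100 CPM, were Rpl39 and Rpl35a. Rpl39 had 20.2% shared windows, with a range of 3.57-fold in BMDM_H and 20.6-fold in BMDM_T. Rpl35a had 52.9%, with a range of 3.83-fold and 4.82-fold. Rpl9 had 100% shared windows, as Rpl10 did, with a range of 1.19-fold in BMDM_H and 1.29-fold in BMDM_T. Over 74 tested ribosomal protein genes, the share of such windows was set against the log2 of the smaller marrow range. The Pearson r was 0.21 and the Spearman rho 0.12. How reads with several matching genes were counted is not given in the sources used here, so levels of genes with many shared windows are uncertain; the part of shared sequence in the split was not tested.

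Rps2 lies at chr17:24718116-24721929 on the plus strand. Snora64 lies inside it on the same strand, and Snhg9 and Snora78 overlap on the other strand. Rpl7a lies at chr2:26910764-26913318 (plus strand), with Gm22879, Gm23969 and Gm24134 overlapping on the same strand. Rpl10 lies at chrX:74270812-74273135 (plus strand) with Snora70 inside, on the same strand. Because the strand setting of the counting is not given, reads of Snhg9 and Snora78 cannot be told apart from those of Rps2. Partners on the same strand could not be separated from their host gene by any strand setting.

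The rise in TAM was set beside these sequence features. Of genes with at most 50% shared windows, 24 of 36 rose against BMDM_T (median log2 fold change 0.58), and of those with more, 18 of 38 rose (median 0.54). With no shared window, 10 of 14 rose and 1 fell (median 0.61), among them Rpl12 and Rps3. With a pyrimidine tract within 5 bases of the listed start, 12 of 25 genes rose (median 0.64). With none there, 18 of 33 rose (median 0.56). These are descriptions with no test. Across the 76 genes, log2 fold change against BMDM_T and log2 mean level had a Pearson r of 0.01 and a Spearman rho of -0.19; genes of the same libraries are not independent.

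Of ribosomal proteins that the name rule misses, Gnb2l1 (the scaffold protein RACK1 of the small subunit) rose against both marrow groups. It averaged 4201 CPM in TAM (SD 718, n = 3), 2229 in BMDM_T (SD 319.8, n = 4) and 2501 in BMDM_H (SD 239.6, n = 4), with log2 fold changes of 0.91 ± 0.18 (edgeR adjusted p = 0.00017) and 0.75 ± 0.18 (adjusted p = 0.0013). Rpsa and Fau were not called: Rpsa was at -0.22 ± 0.18 and 0.04 ± 0.18, and Fau at -0.23 ± 0.22 and -0.49 ± 0.22. Against BMDM_H, Fau was called lower without BMDM_T replicate 1 (-0.51) or BMDM_H replicate 2 (-0.65). Gnb2l1, Rpsa and Fau were not called between the marrow groups.

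Genes that build ribosomes were higher in TAM in many cases. For all lists below, the shares of all tested genes called higher and lower were 30.1% and 28.7% against BMDM_T and 28% and 28.3% against BMDM_H, and no list was tested against another. Of 36 tested assembly factors 23 rose and 0 fell against BMDM_T (median log2 fold change 0.74), and 26 rose against BMDM_H (median 0.90). Heatr1, needed for processing of the small subunit RNA, rose from 27.5 to 103 CPM (log2 1.89 ± 0.20, edgeR adjusted p = 6.2e-08). Pes1 of the PeBoW complex rose by 1.38 ± 0.17 on the log2 scale and Noc2l, known as an assembly factor and histone acetylation inhibitor, by 1.53 ± 0.21. Of the RNA polymerase I list, 2 of 9 rose (Polr1c 0.69 ± 0.19, Rrn3 1.13 ± 0.43) and 2 fell, among them Polr1a, the largest subunit (54.8 to 27.5 CPM, adjusted p = 0.00028), and Taf1c (-0.51 ± 0.22, adjusted p = 0.05). The Rrn3 and Taf1c calls were each lost in several alternatives, and without TAM replicate 3 the values were 0.84 and -0.60. Noncoding genes that host small nucleolar RNAs rose in 3 of 6 cases: Gas5 (0.99 ± 0.19), Snhg12 (1.23 ± 0.21) and Snhg6 (1.53 ± 0.33).

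Translation factors were higher in part. Of 13 elongation and nascent chain factors 7 rose and 0 fell against BMDM_T (median 0.52), among them Eef2, the translocase, from 1241 to 2020 CPM (log2 0.70 ± 0.16, edgeR adjusted p = 0.00069), and Eef1g (0.82 ± 0.20). Of 29 initiation factors 12 rose and 0 fell (median 0.16). The smallest p was that of the helicase Eif4a1, from 211 to 537 CPM (1.35 ± 0.18, adjusted p = 2.0e-06). Against BMDM_H 10 initiation factors rose, and Eif1 fell (-0.46 ± 0.17, adjusted p = 0.028), a call lost without TAM replicate 2 (-0.41) or 3 (-0.48) or BMDM_H replicate 3 (-0.36). Of 62 mitochondrial ribosomal protein genes 21 rose (33.9%, near the 30.1% of all tested genes) and 5 fell (8.06%, all genes 28.7%) against BMDM_T (median 0.41).

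In the Myc and mTOR list 5 of 17 genes rose (29.4%) and 7 fell (41.2%) against BMDM_T, beside 30.1% and 28.7% of all tested genes. Rheb, the activator of mTOR complex 1, rose by 1.26 ± 0.19 on the log2 scale, and Rptor, a component of that complex, by 0.78 ± 0.24. Mlst8, a component of both mTOR complexes, had a log2 fold change of -3.16 ± 0.25 (74.5 to 7.95 CPM; edgeR adjusted p = 1.2e-09). Mxd1, an antagonist of Myc, had -2.27 ± 0.19 (426 to 89.0 CPM), and Max, the partner of Myc, -1.41 ± 0.18. Mnt, which also antagonizes Myc, went the other way and was called higher in TAM against both marrow groups. Without TAM replicate 3 its log2 fold change was 0.70 against BMDM_T and 0.95 against BMDM_H, and both calls held. Myc itself was at 17.9 CPM in TAM, 13.9 in BMDM_T and 13.9 in BMDM_H and was not called (0.32 ± 0.38 against BMDM_T, adjusted p = 0.47). Between the marrow groups Mxd1 was higher in BMDM_T (0.75 ± 0.16, adjusted p = 0.0094), as was Eif4ebp1, a translation repressor controlled by mTOR (0.80 ± 0.22, adjusted p = 0.034). The Eif4ebp1 call was lost without BMDM_T replicate 1 (0.57) or 4 (0.83) and without BMDM_H replicate 2 (0.74), 3 (0.73) or 4 (0.81). Of the other lists, Mrpl52 among the mitochondrial ribosomal proteins was the gene called between the marrow groups.

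**Figure D5:**
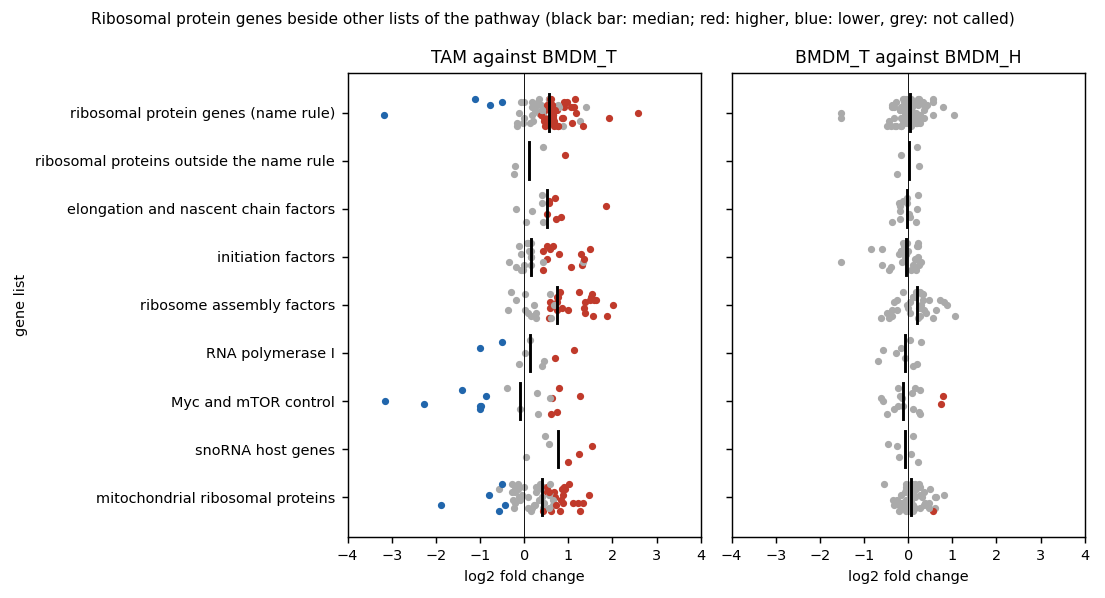
Log2 fold change (x axis) of each tested gene in the ribosomal protein set and the other lists (rows), for TAM against BMDM_T (left) and BMDM_T against BMDM_H (right). Points are genes (red higher, blue lower, grey not called) and black bars list medians, 0.56 for the ribosomal protein genes and 0.74 for assembly factors on the left.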

How the data were processed

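The data are 3'-end mRNA libraries with unique molecular identifiers, per the labels' protocols. The deposited values are raw counts per gene in 1 table; the submitters' processing notes name bcl2fastq, STAR 2.4.2a, HTSeq and mm10. The sources used here do not give the annotation, strand setting or treatment of multiply matching reads, nor whether identifiers were collapsed. The 6 libraries of batch 2 were not used, since their rows do not follow the order of the gene symbols. The 14214 rows without a symbol stayed out.

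The 11 libraries of batch 1 were fitted together with edgeR 4.0.16 (filterByExpr, TMM, glmQLFit, glmQLFTest) in R 4.3.3, and p-values were adjusted over all tested genes. SE was taken as |log2 fold change| over the square root of the F statistic. Alternatives used DESeq2 1.42.0, limma 3.58.1 (voom), other scalings, thinned counts and left-out libraries. The fit was tested on simulated data. Same-numbered BMDM_T and BMDM_H libraries deviated together (r = 0.22, 0.24, 0.13 and 0.13), above the limit of 0.1, so the numbers were treated as pairs in an alternative; the labels do not say what they share. Replicates differed by more than sampling noise, and are not stated to be separate mice, so the p-values reflect variation among libraries, which may be technical.

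Named genes are the stalk genes, the paralogs with their partners, untested genes, and, per comparison, the 5 largest rises and falls called and reaching 30 CPM in the higher of both groups, plus up to 3 genes per direction with the smallest p from each pathway list. The genes and lists were chosen with earlier results of these data known.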

Additional observations from a re-analysis of the deposited data

Results flagged for a closer look

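In each marrow group of 4, the highest and lowest library were compared with the others for the 76 tested ribosomal protein genes and the summed levels. Of 158 such groups of values, 9 had a library standing apart (a gap to the nearest other library above the 95% limit of Dixon for its share of the range), near the 1 in 20 that chance flags. In BMDM_H, replicate 4 was high for Rpl35 (200.4 CPM; others 97.1 to 110) and low for Rpl36a (180 CPM; others 255 to 262). Replicate 2 was low for Rps14 (1195 CPM; others 1663 to 1698), replicate 3 low for Rps19bp1 (16.7 CPM; others 31.0 to 33.0), and replicate 1 high for Rps2 (834 CPM; others 7.24 to 7.81). In BMDM_T, replicate 1 was low for Rpl37a (1121 CPM; others 1744 to 1836) and for the summed large subunit level (35000 CPM; others 42190 to 42440). Replicate 2 was high for Rpl37rt (164 CPM; others 53.2 to 65.8) and Rps20 (878 CPM; others 567 to 620).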

How the results depend on the processing

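No result changed direction with a call under any alternative. For BMDM_T against BMDM_H, the number of ribosomal protein genes called higher was 1 with DESeq2, 1 with the replicate block and 0 to 2 when each library was left out; with total counts alone its median log2 fold change was -0.06 (all genes -0.12). For TAM against BMDM_T, leaving out each library gave 22 to 45 higher, 2 to 4 lower and a median log2 fold change of 0.42 to 0.63, the lowest of each without TAM replicate 3. Thinning left 1 lower, and scaling by total counts alone gave a median of 0.71 (all genes 0.18) and a summed-level ratio of 1.53. For TAM against BMDM_H, lower genes numbered 1 with only the 2 groups compared, 0 after thinning and 1 to 3 when each library was left out. The cause was not tested, apart from thinning, which leaves fewer counts. Calls held in all 22 alternatives for 17 of 42 higher and 1 of 4 lower genes against BMDM_T, and for 23 of 41 and 0 of 2 against BMDM_H. The replicate block did not move another count of these genes by over 1.5 times.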
